A study of Mus musculus with 16 samples.

Results

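Genes known as markers of the prostate lobes, *Pbsn*, *Tgm4*, *Spink3*, *Hoxb13*, *Msmb* and *Sbp*, were followed in mouse seminal vesicle (SV) RNA-seq. They are 6 of the 31274 genes in the table, chosen by name as genes of prostate tissue, and all 6 passed the filter on low expression (mean FPKM above 1 in at least 1 group). The question was whether an SV cut away from the anterior prostate, the lobe it adjoins, shows expression of prostate genes, and how neonatal oestrogen changed it. SVs came from male C57BL/6 mice at week 5, in 16 samples of 4 groups with 4 samples each. WT-veh mice were wild type and received corn oil alone. WT-DES mice were wild type and received diethylstilbestrol (DES), a synthetic oestrogen, in corn oil at 2 µg per pup per day by subcutaneous injection on days 1 to 5 of life. αERKO-veh and αERKO-DES mice carried a disruption of *Esr1* on both copies in every tissue, which removes oestrogen receptor α (ERα), and received the same vehicle or DES. αERKO mice were bred from heterozygous parents and WT mice were born to purchased dams, so genotype and breeding source cannot be told apart. RNA was described as coming from individual mice in 3 of the groups and from 3 pools of mice in WT-DES. As 4 WT-DES samples are labelled, whether each is a separate pool is unknown, and every WT-DES standard error and p takes them as 4 independent samples.

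The prostate grows from the urogenital sinus and the SV from the Wolffian duct, and both become secretory glands under androgen. In the mouse each prostate lobe secretes its own set of proteins. *Pbsn* encodes probasin, a secreted lipocalin of prostate epithelium whose promoter is widely used to drive transgenes in the prostate. *Tgm4* encodes the transglutaminase of the anterior prostate that cross-links SV proteins into the copulatory plug. *Msmb* encodes the secreted β-microseminoprotein, and *Sbp* the spermine-binding protein of the ventral prostate. *Spink3* encodes a Kazal-type trypsin inhibitor that the SV itself secretes in quantity, and *Hoxb13* a homeobox transcription factor of the prostate and hindgut.

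*Pbsn* and *Tgm4* moved together across the samples and *Sbp* did not, so their promoters are shown side by side. Promoter windows from RefSeq (GRCm38.p6) were used for 3 of the 6 genes. A window holds the 250 bases before a RefSeq transcription start. GENCODE M21 places the first base of each of these genes upstream of the RefSeq start used, so each run below ends just before the GENCODE gene, which leaves out 123 bases of the window for *Pbsn*, 15 for *Tgm4* and 6 for *Sbp*. Runs are written 5′ to 3′ on the strand of the gene. Capitals mark CAATAAA (bound by HOXB13), TGTTTAC (bound by FOXA proteins) and TATAAA (the TATA box), searched on both strands.
*Pbsn*, chrX:77853624-77853750, minus strand: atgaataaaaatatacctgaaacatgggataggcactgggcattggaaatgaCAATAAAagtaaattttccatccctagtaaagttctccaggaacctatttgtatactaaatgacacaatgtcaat
*Tgm4*, chr9:123034491-123034725, plus strand: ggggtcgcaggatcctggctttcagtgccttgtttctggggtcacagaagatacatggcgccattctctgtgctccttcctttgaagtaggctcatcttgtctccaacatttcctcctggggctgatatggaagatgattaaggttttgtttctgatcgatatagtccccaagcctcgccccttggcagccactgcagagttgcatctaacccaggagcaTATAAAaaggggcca
*Sbp*, chr17:23941428-23941671, plus strand: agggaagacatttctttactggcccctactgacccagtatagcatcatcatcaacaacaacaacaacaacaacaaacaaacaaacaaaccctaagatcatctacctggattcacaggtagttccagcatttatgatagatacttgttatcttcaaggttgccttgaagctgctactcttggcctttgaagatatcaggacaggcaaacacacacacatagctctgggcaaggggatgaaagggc

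The *Pbsn* window held CAATAAA 198 bases and TATAAA 59 bases before the RefSeq start, the latter inside the GENCODE gene and so not in the run. The *Tgm4* window held TATAAA 30 bases before the start. RefSeq gives 3 windows for *Sbp*, of which the run shown is from the one that ends closest to the GENCODE start, and none of them held any of these motifs. Of 32851 mouse promoters of this length, 4.20% held CAATAAA, 3.17% TGTTTAC and 12.4% TATAAA. Among these motifs the windows of *Pbsn* and *Tgm4* shared only the TATA box. These are matches of letters, and binding was not measured here. No window was available for *Hoxb13* or *Msmb*. *Spink3* was left out of the motif search, so its motifs were not examined.

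On GRCm38 (GENCODE M21) the genes lie on 6 chromosomes. *Pbsn* lies on chromosome X from 77837901 to 77853623 (minus strand), *Hoxb13* on chromosome 11 from 96194316 to 96197447 (plus strand) and *Tgm4* on chromosome 9 from 123034726 to 123067561 (plus strand). *Msmb* lies on chromosome 14 from 32142023 to 32158370 (plus strand), *Sbp* on chromosome 17 from 23941672 to 23945607 (plus strand) and *Spink3*, annotated as *Spink1*, on chromosome 18 from 43728082 to 43737557 (minus strand). *Sbp* has a close relative beside it, *Sbpl*, from 23953084 to 23955274 on the minus strand, and reads may have been split between the pair.

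Expression is given as FPKM, the fragments mapped to a gene scaled for its exon length and for the size of the library, so that levels can be compared between genes. Fragment counts are not part of the values, and library depth is unknown. *Esr1* was 0.91 to 1.75 FPKM in the αERKO samples, 2.81 to 4.55 in WT-veh and 8.74 to 19.6 in WT-DES, so that each αERKO sample lay below each WT sample. The tissue label held in the vehicle groups and αERKO-DES, where 10 SV secretory genes (*Svs1*, *Svs2*, *Svs3a*, *Svs3b*, *Svs4*, *Svs5*, *Svs6*, *Pate4*, *Sva* and *Spinkl*) took 7.22% to 11.9% of all FPKM. In WT-DES they took 0.688% to 2.10%. The libraries of WT-veh 4 and αERKO-veh 2, 3 and 4 stood apart with skeletal muscle transcripts, the muscle gene *Mylpf* being above 100 FPKM in these libraries and at most 27.1 in the others. Some genes of the proximal prostate and urethral epithelium were also higher in these 4 libraries than in the rest of their groups, such as *Krt4*, a keratin, at 18.4 FPKM in WT-veh 4 against 3.35 to 3.58, and at 31.0 to 49.0 in αERKO-veh 2, 3 and 4 against 5.14. *Psca* and *Wfdc2* were higher in the same libraries as well.

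The listed prostate genes, among them *Spink3*, which the SV itself secretes, were abundant in the vehicle-treated WT SV. Their pattern split the 6 genes. *Pbsn*, *Tgm4* and *Spink3* stood at high and similar levels in the 4 mice and *Hoxb13* between 115 and 194 FPKM, whereas *Msmb* and above all *Sbp* ran from low to very high between mice of the same group. By group mean the order was *Spink3* (3112 ± 80.4 FPKM, SD, n = 4), *Pbsn* (2103 ± 80.9), *Tgm4* (1646 ± 169), *Sbp* (1621 ± 2065), *Msmb* (863 ± 630.2) and *Hoxb13* (143 ± 35.5). *Spink3*, *Pbsn* and *Tgm4* did not overlap each other, while *Sbp* and *Msmb* each overlapped their neighbours in this order. Together the 6 genes made up 1.19% to 1.97% of all FPKM in WT-veh.

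*Pbsn* was 2179, 2060.5, 2161 and 2009.9 FPKM in WT-veh samples 1 to 4. In WT-DES it was 165.5, 31.9, 10.6 and 80.0. The αERKO-veh samples had 2188, 1612, 2265 and 1796 and the αERKO-DES samples 2186, 1725, 1963 and 1547. Probasin mRNA was thus low in each WT-DES sample and overlapped between the other groups.

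*Tgm4* was 1856, 1679.6, 1594 and 1453 FPKM in WT-veh, and 152, 27.4, 6.62 and 66.6 in WT-DES. The αERKO-veh samples had 1643, 1516, 2256 and 1607, and αERKO-DES had 1958, 1749, 2014 and 1635. The transglutaminase of the anterior prostate therefore followed probasin sample by sample in WT-DES. *Tgm4* ran at 62.3% to 106% of *Pbsn* in the same library over all 16 samples, including those where both had fallen far below their level in the other groups.

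*Spink3* was 3056, 3062, 3102 and 3229 FPKM in WT-veh and 316, 66.8, 66.02 and 225 in WT-DES. In αERKO-veh it was 2579.9, 1499, 1798 and 2101, and in αERKO-DES 2763, 2203, 3215 and 1769.7. Each αERKO-veh sample lay below each WT-veh sample. Set against *Spinkl*, another Kazal-type inhibitor and one of the 10 SV genes, *Spink3* was 78.9% to 103% of its FPKM in the same library over all 16 samples.

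*Hoxb13* was 135, 115, 125.7 and 194 FPKM in WT-veh and 6.56, 12.5, 5.24 and 7.27 in WT-DES. The αERKO-veh samples had 117, 112, 173 and 131, and αERKO-DES had 131, 132, 88.9 and 113. *Hoxb13* was the least abundant member by WT-veh mean, and it was low in WT-DES alone.

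*Msmb* was 689, 94.8, 1082 and 1586 FPKM in WT-veh and 41.9, 10.3, 3.31 and 24.8 in WT-DES. In αERKO-veh it was 1509, 954, 766 and 855, but in αERKO-DES 93.8, 249, 46.6 and 29.1. Unlike the 4 genes above, β-microseminoprotein mRNA was lower in each αERKO-DES sample than in each αERKO-veh sample. One WT-veh sample, number 2, lay within the αERKO-DES range.

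*Sbp* was 58.8, 2.59, 2057 and 4368 FPKM in WT-veh, a 1686-fold range among mice of 1 group. It was 17.6, 5.38, 2.47 and 14.4 in WT-DES and 490.0, 85.9, 43.2 and 457 in αERKO-veh. In αERKO-DES it was 4.92, 6.90, 4.33 and 4.46. WT-veh sample 4 held the highest level of any of the 6 genes in any sample, and WT-veh sample 2 was within the range of WT-DES.

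**Figure D1:**
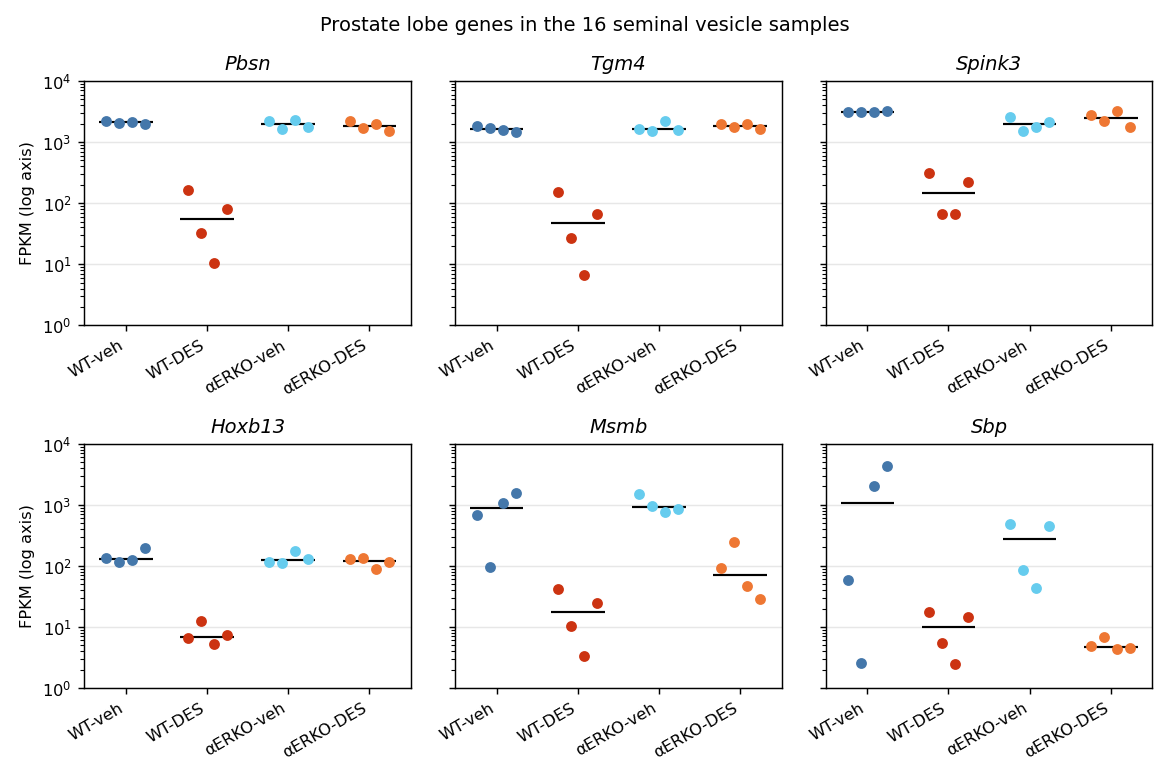
FPKM (log axis) of the 6 prostate lobe genes in the 16 SV samples, with 1 point per sample, 4 per group, and a line at the median of each group. *Pbsn*, *Tgm4*, *Spink3* and *Hoxb13* are low in WT-DES alone, *Msmb* and *Sbp* are also low in αERKO-DES, and *Sbp* runs from 2.59 to 4368 FPKM among the WT-veh samples.

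The spread of *Sbp* and *Msmb* in WT-veh was large beside that of other genes. On the log2(FPKM + 1) scale the SD over the 4 WT-veh samples was 4.75 for *Sbp*, the 9th largest of the 15988 genes tested, and 1.80 for *Msmb* (rank 92), against a median of 0.12 over all genes. *Pbsn* (SD 0.056) and *Spink3* (SD 0.037) varied less than the median gene in the same mice, *Tgm4* (SD 0.15) slightly more and *Hoxb13* (SD 0.33, rank 1051) clearly more. *Hoxb13*, like *Sbp* and *Msmb*, was highest in sample 4 and lowest in sample 2. *Sbp* and *Msmb* both ordered the WT-veh samples as 4, 3, 1, 2 from high to low. So did 5 of 7 other prostate secretory genes, namely *Defb50* (a defensin), *5430419D17Rik*, *Abo* (a glycosyltransferase), *Azgp1* (a secreted glycoprotein) and *Trpv6* (a calcium channel), but 0 of the 10 SV secretory genes. Of all genes tested, 8.44% had this order.

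In WT-veh samples 1 to 4, *Defb50* was 1104, 642, 1445 and 1946 FPKM and *5430419D17Rik* 6.63, 1.19, 33.2 and 96.5. *Abo* was 6.35, 4.13, 22.5 and 72.1 in the same samples. *Sbpl*, the relative beside *Sbp*, was 4.05, 0.48, 197 and 423. All of these were highest in sample 4 and lowest in sample 2, as *Sbp* was.

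The sum of 5 skeletal muscle genes (*Ckm*, *Myh4*, *Mylpf*, *Tnnt3* and *Pvalb*) had the same order in WT-veh, at 43.9, 35.9, 83.9 and 925 FPKM. In αERKO-veh this sum was 105, 793, 1204 and 681, and there *Sbp* was highest in sample 1 and lowest in sample 3, the reverse of the muscle sum. The part of these tissues in the spread of *Sbp* was not tested. In bulk RNA, fewer cells of a type and less RNA per cell cannot be told apart, and neither can RNA of attached prostate and expression by the SV itself, since no prostate library was analysed here.

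**Figure D2:**
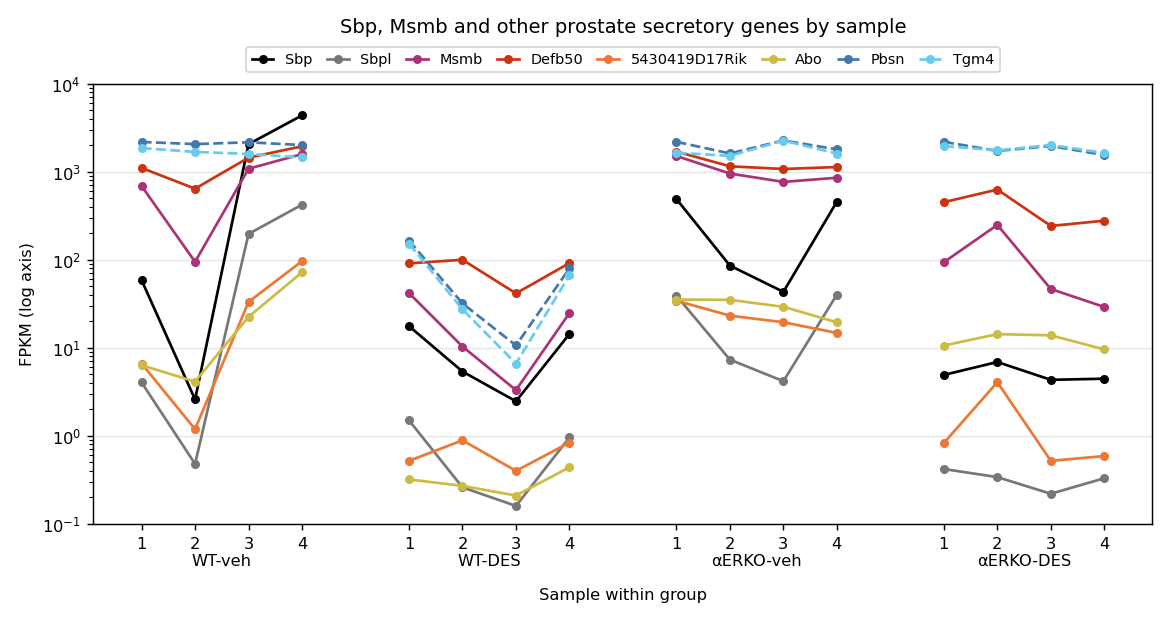
FPKM (log axis) of *Sbp*, *Sbpl*, *Msmb*, *Defb50*, *5430419D17Rik* and *Abo* (solid lines) and of *Pbsn* and *Tgm4* (dashed lines) in samples 1 to 4 of each group. Lines join the values of 1 gene within a group and the samples have no order. In WT-veh the solid lines are lowest in sample 2 and highest in sample 4 while the dashed lines are nearly level.

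To set the members against the gland itself, each was expressed as a percentage of the geometric mean FPKM of the 10 SV secretory genes in the same library. *Spink3* kept the narrowest range on this scale, 33.8% to 63.1% over all 16 samples. It too was lower with DES in WT, at 33.8% to 47.8% in WT-DES against 51.7% to 63.1% in WT-veh, without overlap. The 10 SV genes themselves fell unevenly with DES in WT. Mean FPKM went from 10333 to 1754 for *Svs4*, from 3112 to 168 for *Spink3* and from 4034 to 170 for *Sva*. In WT-veh *Pbsn* was 34.8% to 40.2% of the SV genes and *Tgm4* 28.4% to 34.1%. The αERKO-veh samples had 42.6% to 55.3% and 32.0% to 55.0% for this pair, and those of αERKO-DES 28.2% to 41.8% and 29.0% to 44.1%. In WT-DES both were lower and uneven, at 5.44% to 25.1% for *Pbsn* and 3.39% to 23.1% for *Tgm4*. Their values there lay below each sample of the other 3 groups, and relative to the SV genes this pair was lower by more than *Spink3* was.

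*Hoxb13* was 1.95% to 3.80% of the SV genes in WT-veh and 0.99% to 7.75% in WT-DES, and these ranges overlapped. *Msmb* covered 1.601% to 31.0% in WT-veh samples and 18.7% to 29.4% in those of αERKO-veh. After DES it was 1.70% to 6.43% of the SV genes in WT and 0.67% to 5.82% in αERKO. *Sbp* covered 0.044% to 85.4% in WT-veh alone. In αERKO-DES it was 0.062% to 0.16%, against 1.05% to 11.0% in αERKO-veh and 1.27% to 3.35% in WT-DES. *Sbp* was therefore lower relative to the SV genes in αERKO-DES than in WT-DES, without overlap, although its FPKM overlapped between these groups.

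**Figure D3:**
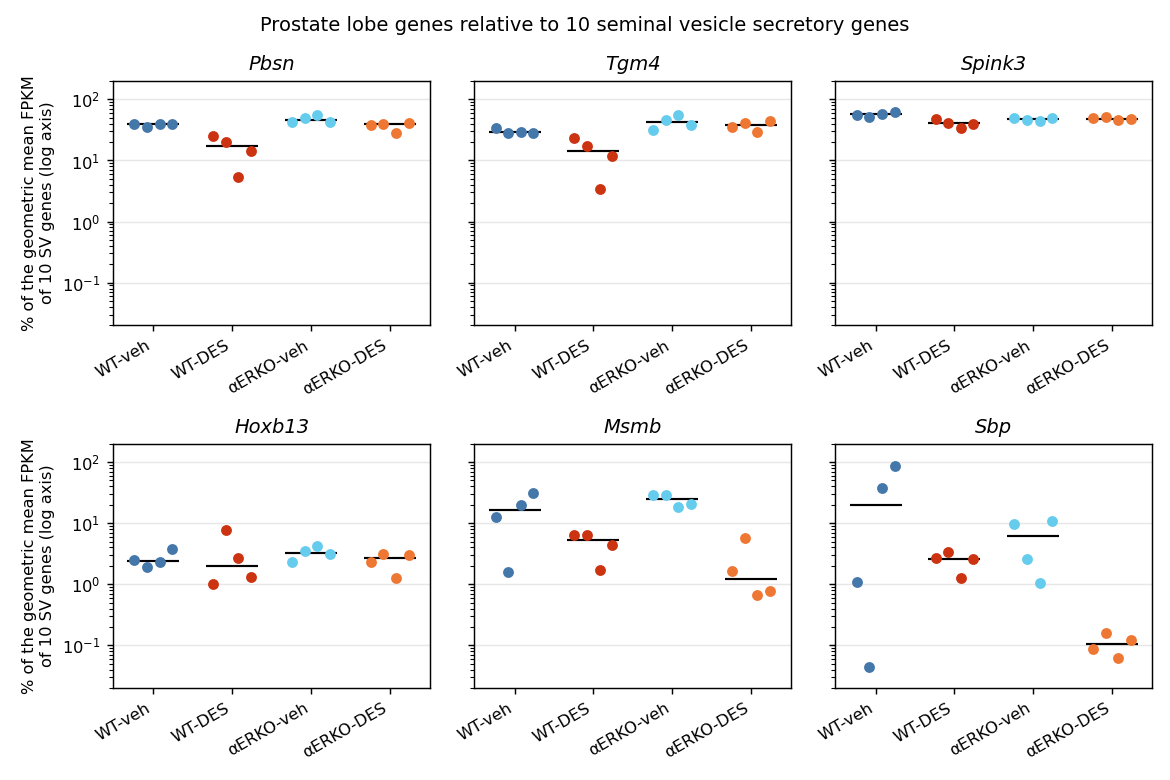
Each prostate lobe gene as a percentage of the geometric mean FPKM of 10 SV secretory genes in the same library (log axis), with 1 point per sample, 4 per group, and a line at the group median. *Spink3* stays within 33.8% to 63.1% in all 16 samples, whereas *Sbp* is between 0.062% and 0.16% in αERKO-DES and runs from 0.044% to 85.4% in WT-veh.

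Mean FPKM of all 6 listed genes was lower with neonatal DES in WT SVs at week 5. The fall in mean FPKM was 163-fold for *Sbp* (107-fold by medians), whose groups overlapped, 43.0-fold for *Msmb*, 29.2-fold for *Pbsn*, 26.03-fold for *Tgm4*, 18.5-fold for *Spink3* and 18.1-fold for *Hoxb13*, and the samples of the last 5 genes did not overlap between WT-DES and WT-veh. WT-DES sample 1 weighed on these means, and without it the fold was 67.3 for *Msmb*, 51.5 for *Pbsn* and 49.1 for *Tgm4*, while without WT-veh 4 it was 70.8 for *Sbp*. The log2 change was −5.46 for *Pbsn* (standard error 0.54, limma adjusted p = 4.32e-07), −5.41 for *Tgm4* (0.60, adjusted p = 1.38e-06) and −4.53 for *Spink3* (0.41, adjusted p = 1.79e-07). It was −4.05 for *Hoxb13* (0.22, limma adjusted p = 1.66e-09), −5.25 for *Msmb* (0.86, adjusted p = 6.18e-05) and −4.55 for *Sbp* (1.66, adjusted p = 0.0219). A gene was called with a limma adjusted p of at most 0.05 and group means at least 1.5-fold apart. On this rule 6 of 6 members were lower, where 23.9% of all genes tested were called lower, 28.9% higher and 52.7% in either direction, and 5 of 6 did not overlap, as did 66.7% of all genes. With FPKM rescaled to equal totals without the 20 most abundant genes, 11.3% of all genes were called lower and 42.9% higher, and 6 of 6 members were still called lower.

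*Sbp* was the weakest of these calls. Its WT groups overlapped, with WT-veh sample 2 below 3 of the 4 WT-DES samples, and an exact two-sided permutation test over the 70 arrangements of the samples gave p = 0.143. The call was lost without WT-veh 3 (log2 change −3.46, limma adjusted p = 0.0807), without WT-veh 4 (−3.09, adjusted p = 0.0846) and without WT-DES 3 (−4.10, adjusted p = 0.0569). Over all samples left out in turn the log2 change ran from −6.51 (without WT-veh 2) to −3.09. The call was also lost in a model of the 2 groups alone (−4.55, limma adjusted p = 0.0786) and without the 4 libraries with muscle transcripts (−3.09, adjusted p = 0.106). The SD of *Sbp* differed widely between the groups, from 4.75 in WT-veh to 0.26 in αERKO-DES, and the model gives all groups 1 estimate of the spread.

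The residual expression in WT-DES was ordered. *Pbsn*, *Tgm4*, *Spink3*, *Msmb* and *Sbp* all ranked the 4 WT-DES samples as 1, 4, 2, 3 from high to low, and 5 of the 10 SV genes (*Svs1*, *Svs3a*, *Svs3b*, *Sva* and *Spinkl*) did so too, but 0 of the 7 other prostate secretory genes, against 8.22% of all genes tested. *Hoxb13* was highest in sample 2 instead. Within WT-DES *Pbsn*, *Tgm4* and *Msmb* had the higher spreads, 15.6-fold, 23.0-fold and 12.6-fold between the highest and the lowest sample, and *Hoxb13* the lowest, 2.38-fold.

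The other genes of the gland moved as follows. The 10 SV secretory genes were all called lower in WT-DES (median log2 change −4.12, against −0.0094 over all genes and −4.90 over the 6 members). All 7 of the other prostate secretory genes in the table were called lower (median −3.61), among them *Azgp1* (−5.10, limma adjusted p = 1.65e-09) and *Defb50* (−3.93, limma adjusted p = 2.25e-07). Of 6 prostate and urogenital sinus transcription factors, *Foxa1* was called lower (−0.77, limma adjusted p = 0.0219) and *Hoxa13* (0.92, adjusted p = 0.00013) and *Hoxd10* (0.58, adjusted p = 5.95e-05) higher, while *Hoxd13*, of the same homeobox group as *Hoxb13*, had a change of 0.02 (adjusted p = 0.905). Of 8 genes of the proximal prostate and urethral epithelium, 7 were called higher (median 2.999), such as *Psca*, a surface antigen (3.30, limma adjusted p = 0.00068), and *Krt4*, a keratin (3.39, adjusted p = 0.00011).

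General epithelial genes were lower by less than the members. Of 6 such genes 5 were called lower (median −0.80), and *Krt8*, a keratin of luminal cells, fell by 0.73 on the log2 scale (limma adjusted p = 0.00065). *Hoxb13* was 61.2% to 93.9% of *Krt8* in WT-veh and 4.07% to 11.7% in WT-DES. Leukocyte genes (8 of 8 called higher, summed FPKM 80.4 to 142 in WT-veh and 406 to 596 in WT-DES), fibroblast genes (6 of 6 higher, 731 to 881 and 1916 to 2091) and adipocyte genes (4 of 6 higher, 208 to 1042 and 825 to 1898) moved the other way. Smooth muscle genes were lower (5 of 6, 2993 to 3734 and 791 to 3580). The part of these other cells in the fall of the members was not tested.

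No change of a member was called with loss of ERα alone. Of the 6 genes 0 were called in αERKO-veh relative to WT-veh, where 7.12% of all genes were (2.63% lower and 4.50% higher, or 0.7% and 9.0% with equal totals), and 0 had an unadjusted limma p below 0.05. The log2 change was −0.11 for *Pbsn* (standard error 0.54), 0.08 for *Tgm4* (0.60), −0.09 for *Hoxb13* (0.22), 0.76 for *Msmb* (0.86) and −0.29 for *Sbp* (1.66). These errors limit the size of change that could be detected here, above all for *Sbp*. Its mean was 6.03-fold lower and its median 3.89-fold lower in αERKO-veh, while its log2 change ran from −2.25 to 1.17 with single samples left out. The change was 2.69 without the libraries with muscle transcripts, which leaves 1 αERKO-veh sample and also drops WT-veh 4, the highest in *Sbp*. The direction for *Sbp* was thus not settled. *Spink3* had the one separation without overlap, as 29.7% of all genes did. Its mean was 1994 ± 461 FPKM in αERKO-veh against 3112 ± 80.4 in WT-veh (SD, n = 4 each, exact two-sided permutation p = 0.0286, the smallest that 4 against 4 samples allow). Its log2 change was −0.67 (standard error 0.41, limma adjusted p = 0.251, but 0.0226 in a model of the 2 groups alone and 0.0411 with sample weights), beside a median of −0.48 over the 10 SV genes, of which 0 were called.

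Without ERα, DES left *Pbsn*, *Tgm4*, *Spink3* and *Hoxb13* at high levels, while *Msmb* and *Sbp* were lower. Mean *Msmb* was 105 ± 100.03 FPKM in αERKO-DES and 1021 ± 334 in αERKO-veh, a 9.76-fold difference (log2 change −3.69, standard error 0.86, limma adjusted p = 0.0409). Without αERKO-DES 2 the difference was 18.1-fold (log2 change −4.26, limma adjusted p = 0.0535). Mean *Sbp* was 5.15 ± 1.19 against 269 ± 237, a 52.2-fold difference that was not called (log2 change −4.82, standard error 1.66, limma adjusted p = 0.103). In a model of the 2 groups alone and with sample weights *Sbp* was called (limma adjusted p as low as 0.00325). Neither gene overlapped between the groups (2 of 6 members, against 13.0% of all genes), each with an exact two-sided permutation p of 0.0286, among 30 such tests made. *Msmb* was thus the 1 member of 6 called, where 1.49% of all genes were called, 1.41% lower and 0.0876% higher. The log2 changes of the others were −0.08 for *Pbsn* (standard error 0.54), 0.08 for *Tgm4* (0.60), −0.19 for *Hoxb13* (0.22) and 0.31 for *Spink3* (0.41).

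The *Msmb* call was close to its threshold. Leaving out 1 sample at a time gave limma adjusted p values from 0.0272 to 0.146, above 0.05 without WT-veh 1 or 3, WT-DES 4, αERKO-veh 2 or 4, or any one of the αERKO-DES samples. Over these settings the log2 change stayed between −4.26 and −3.24. Without the 4 libraries with muscle transcripts the log2 change was −4.31, no smaller than with them. That setting leaves 1 αERKO-veh sample, whose spread is taken from the other groups, and its adjusted p of 0.855 says little.

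Among the other prostate secretory genes, *Defb50* (−1.74, limma adjusted p = 0.0351) and *5430419D17Rik* (−3.40, limma adjusted p = 0.0445) were called lower in the same comparison, 2 of 7, and *Abo* had a log2 change of −1.21 (adjusted p = 0.203). In αERKO-veh samples 1 to 4 *Defb50* was 1693, 1153, 1074 and 1131 FPKM, and in αERKO-DES 451, 628, 242 and 278. *5430419D17Rik* was 34.3, 23.2, 19.5 and 14.8 and then 0.83, 4.07, 0.52 and 0.59. Sample 2 of αERKO-DES had the highest *Msmb*, *Sbp*, *Defb50* and *5430419D17Rik* of its group. Of the SV genes 0 of 10 were called (median 0.30).

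Genes of tissue around the gland also differed between these groups. Of 6 skeletal muscle genes 4 were called lower in αERKO-DES, and their sum without *Acta1* was 22.2 to 43.6 FPKM there against 105 to 1204 in αERKO-veh. Of 6 adipocyte genes 4 were called lower (17.01 to 61.0 against 88.2 to 1044), and *Krt4* was lower as well (−2.35, limma adjusted p = 0.0486). αERKO-veh sample 1, with the lowest muscle sum of its group, had the highest *Msmb* and *Sbp*. The part of the surrounding tissue in the differences of *Msmb* and *Sbp* was not tested.

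**Figure D4:**
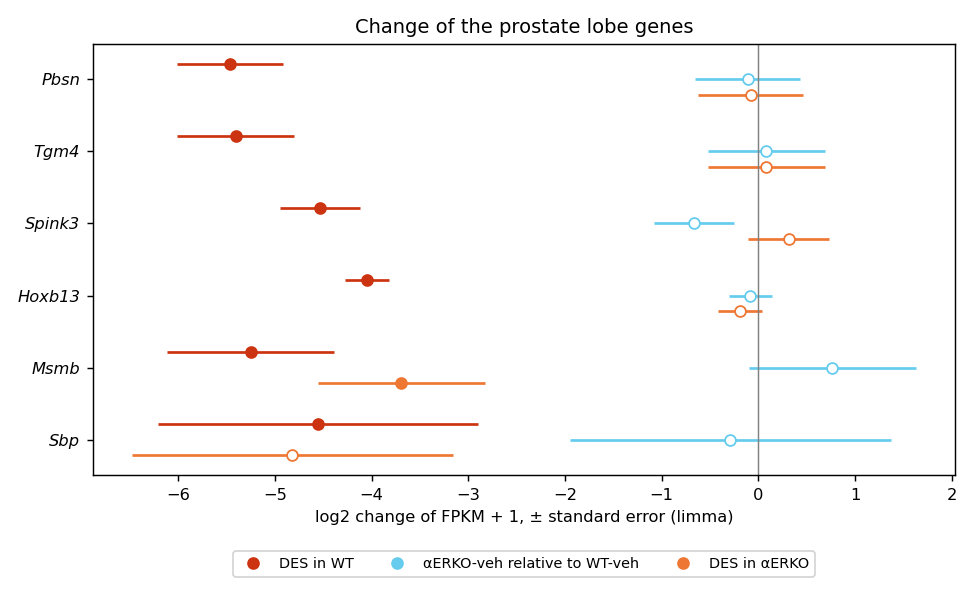
Log2 change of FPKM + 1 with its standard error (limma) for the 6 prostate lobe genes with DES in WT, in αERKO-veh relative to WT-veh, and with DES in αERKO. Filled points passed the call rule and open points did not. With DES in WT all 6 genes are between −5.46 and −4.05, and in αERKO *Msmb* (−3.69) is filled and *Sbp* (−4.82) is open.

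The 2 DES groups differed most in the genes that stood high in αERKO-DES. *Pbsn* (25.8-fold), *Tgm4* (29.1-fold), *Hoxb13* (14.8-fold), *Spink3* (14.8-fold) and *Msmb* (5.21-fold) were higher in αERKO-DES than in WT-DES by mean FPKM, 5 of 6 members against 23.7% of all genes called higher (12.5% with equal totals), 29.6% lower and 53.4% in either direction. Without WT-DES 1 the fold was 45.4 for *Pbsn*, 54.9 for *Tgm4* and 8.16 for *Msmb*, and without αERKO-DES 2 it was 2.81 for *Msmb*. The first 4 genes did not overlap between the groups, as 66.5% of all genes did not. *Msmb* had a log2 difference of 2.32 (standard error 0.86, limma adjusted p = 0.0242) and overlapped, and its call was lost without WT-DES 2 or 3 or αERKO-DES 1 or 2 (adjusted p up to 0.0881 over the left-out samples). *Sbp* was low in both, with a log2 difference of −0.56 (standard error 1.66, limma adjusted p = 0.776).

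αERKO-DES was also compared with WT-veh, which it shares with other comparisons. Of the 6 members 0 were called, where 3.18% of all genes were (1.97% lower and 1.21% higher), and 2 had an unadjusted limma p below 0.05. These were *Msmb* (log2 change −2.93, standard error 0.86, limma adjusted p = 0.0504) and *Sbp* (−5.11, 1.66, adjusted p = 0.07). In both the groups overlapped, and WT-veh sample 2 lay within or below the range of αERKO-DES. Without that sample both were called.

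The effect of DES itself differed between the genotypes for 4 of the 6 genes, where 56.4% of all genes did, 26.9% in this direction (12.1% with equal totals) and 29.6% in the other. The log2 effect of DES in WT, less its effect in αERKO, was −5.38 for *Pbsn* (standard error 0.77, limma adjusted p = 2.15e-05), −5.49 for *Tgm4* (0.85, adjusted p = 4.69e-05), −4.85 for *Spink3* (0.59, adjusted p = 4.56e-06) and −3.85 for *Hoxb13* (0.32, adjusted p = 1.32e-07). No such difference was shown for *Msmb* (−1.56, standard error 1.22, limma adjusted p = 0.263) or *Sbp* (0.27, standard error 2.34, adjusted p = 0.924). *Msmb* was called with sample weights (−3.04, limma adjusted p = 0.0191) and without WT-veh 2 (−2.42, adjusted p = 0.0448), and its value ran from −3.04 to −0.46 over the alternatives, the smallest with 1 αERKO-veh sample. The large errors of these genes leave room for a difference of several log2 units in *Sbp*.

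The genes most like each member over the 16 samples were sought by Pearson's r of log2(FPKM + 1), as a description in which the difference between WT-DES and the other groups enters each r. *Pbsn* and *Tgm4* were each other's closest gene (r = 0.997). Outside the 6 members, *Pbsn* was closest to *9530002B09Rik* (r = 0.996), *Svs1* (0.994) and *Sva* (0.992), and *Tgm4* to *Svs1* (0.994), *9530002B09Rik* (0.991) and *9530053A07Rik* (0.99). *Spink3* was closest to *Spinkl* and *Ceacam10* (0.998 each) and *Svs2* (0.997). *Hoxb13* had *Atp6v1c2*, a proton pump subunit, among its 3 closest genes (0.992). These 4 members thus had neighbours that were high in the 3 groups other than WT-DES.

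*Msmb* and *Sbp* had other neighbours. *Msmb* was closest to *Defb50* (r = 0.959), *AY761184* (0.924) and *Nkx2-6* (0.911), and *Sbp* to *Sbpl* (0.988), *AK137238* (0.923) and *5430419D17Rik* (0.918), over the same 16 samples. When each sample was taken as its deviation from its group mean, *Sbp* was closest to *Sbpl* (0.98), *H2-Q10* (0.87) and *5430419D17Rik* (0.867), and its r was 0.745 with *Msmb*, 0.204 with *Pbsn* and 0.132 with *Tgm4*. *Pbsn* and *Tgm4* had an r of 0.99 with each other on these deviations. Both came from the same libraries, and the WT-DES samples hold the largest deviations of *Pbsn* and *Tgm4*.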

How the data were processed

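SV RNA of 16 samples in 4 labelled groups was analysed. The authors sequenced paired-end reads of 126 nt (Illumina HiSeq), filtered them on a mean quality of more than 20, and used TopHat2 2.0.4 for mapping to mm10 (GRCm38) and Cufflinks 2.0.2 for FPKM. The deposited FPKM values have 2 decimals, and the gene annotation and any scaling between libraries are not given in the sources used here. FPKM holds no counts, so depth is unknown and precision rests on the 4 samples per group. Where nothing ties a sample to 1 mouse, p-values measure only the spread between samples.

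The authors' test needs reads, so log2(FPKM + 1) was analysed with limma 3.58.1 (R 4.3.3) in 1 model of the 4 group means, with moderated variances (eBayes, trend on expression) and p-values adjusted by Benjamini-Hochberg over the 15988 genes whose mean FPKM passed 1 in a group. A fold change on this scale understates low genes. Interaction calls used the same limits, with the 1.5-fold difference taken on the log2 scale. For single genes, exact permutation tests (two-sided) were run on the log2 values. Named genes were the 6 members, listed marker genes, the 3 genes outside the members most like each member on either measure, and *Esr1*. The members and the lists were chosen with earlier results of these data known. *9530053A09Rik*, a listed prostate gene, was not analysed here. Some listed or closest genes are not reported here.

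Alternatives were a pseudocount of 0.1, no minimum or a minimum of 5 on FPKM, a model of the 2 groups compared, sample weights, a replicate block, median-ratio, quantile and equal-total scaling (without the 20 most abundant genes), and leaving out each sample. Leaving out libraries with *Mylpf* above 100 FPKM and a correction for transcript length (lowess, span 0.3) were added after the data were seen. Steps were tested on simulated data. Figures were drawn with matplotlib 3.10.9 and tables made with pandas 2.3.3 and numpy 2.4.6 in Python 3.11.15.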

Additional observations from a re-analysis of the deposited data

Results flagged for a closer look

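The effect of DES differed between the genotypes by the test of the difference itself in 4 of the 6 genes. The log2 effect of DES in WT, less its effect in αERKO, was −5.38 for *Pbsn*, −3.85 for *Hoxb13*, −5.49 for *Tgm4* and −4.85 for *Spink3*, where 56.4% of all genes tested differed. Dixon's test for a single outlying sample, at its 95% critical value for 4 samples, marked 0 of 24 combinations of gene and group. *Sbp* in WT-veh, with 2 low and 2 high samples, is of a form that this ratio does not mark.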

How the results depend on the processing

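Of the 16 called values of the members, 13 kept their call under every alternative run and none changed sign. The other 3 were *Sbp* with DES in WT, and *Msmb* with DES in αERKO and between the DES groups (also lost with the length correction, adjusted p = 0.0575). Members called in αERKO-veh relative to WT-veh went from 0 to 1 in the model of the 2 groups alone and with sample weights. With DES in αERKO, 1 became 0 without a minimum on FPKM and with quantile normalization, and 0 to 1 without single samples. The count there became 2, with *Sbp*, in the model of the 2 groups and with sample weights. In αERKO-DES relative to WT-veh, 0 became 1 with a minimum of 5 or median-ratio scaling, 2 with sample weights, and 0 to 2 without single samples. In the interaction 4 became 5, with *Msmb*, with sample weights and without WT-veh 2. The cause was not tested. Rescaling to equal totals without the 20 most abundant genes moved the median log2 change of all genes in WT-DES relative to WT-veh from −0.0094 to 0.38. Leaving out the libraries with muscle transcripts leaves 1 αERKO-veh sample, so calls lost there say nothing about stability in comparisons with that group.

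Values that changed sign were all uncalled. In αERKO-veh relative to WT-veh, *Pbsn* became 0.39 with quantile normalization, 0.071 with equal totals, 0.037 without the libraries with muscle transcripts and 0.26 with the length correction, *Hoxb13* 0.13, 0.095 and 0.071 with quantile, equal totals and length, and *Tgm4* −0.037 with sample weights and −0.055 without the muscle libraries. *Sbp* became 0.91 with weights, 2.69 without the muscle libraries and 0.063 with the length correction. With DES in αERKO, *Tgm4* became −0.066 with quantile normalization and −0.051 with equal totals, and *Spink3* −0.089 without the muscle libraries. In αERKO-DES, *Pbsn* became 0.11 (quantile) and 0.030 (length) relative to WT-veh, and *Sbp* 0.043 (weights) relative to WT-DES. Leaving out single samples gave ranges that crossed 0, in αERKO-veh relative to WT-veh for *Hoxb13* (−0.22 to 0.073), *Tgm4* (−0.046 to 0.14), *Msmb* (−0.10 to 1.25) and *Sbp* (−2.25 to 1.17), with DES in αERKO for *Pbsn* (−0.17 to 0.0020), and in the interaction for *Sbp* (−1.69 to 1.73).

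Equal replicate numbers do not pair the samples. Deviations of same-numbered samples had a median correlation of −0.016 (lowest −0.21, highest 0.28, 24 pairs). For samples with different numbers it was 0.020 (lowest −0.30, highest 0.26, 72 pairs). With a replicate block the members called stayed at 6, 0, 1, 0, 5 and 4 in the 5 comparisons and the interaction. Over all genes, the 239 calls with DES in αERKO became 28 in the model of the 2 groups, 5 with quantile normalization, 150 without a minimum, 401 with a pseudocount of 0.1, 1119 with sample weights and 6 without the muscle libraries (1 αERKO-veh sample). The 1139 calls of αERKO-veh relative to WT-veh became 7 without the muscle libraries (1 αERKO-veh sample) and 555 with the length correction, and the 508 of αERKO-DES relative to WT-veh became 795, 1002 and 208 in the model of the 2 groups, with weights and without the muscle libraries. Without single samples these counts were 1 to 653, 418 to 1691 and 199 to 883. Depth is unknown, which limits most the values of a few FPKM.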
